A study of Mus musculus with 45 samples.

Results

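The comparison described here asked which genes responded to alpha-eleostearic acid (ESA) differently in fibroblasts made senescent with hydrogen peroxide (H2O2) than in uninduced fibroblasts. It used 12 of the 45 libraries of the series, 3 in each of 4 groups of primary wild-type mouse embryonic fibroblasts: H2O2-senescent cells given ESA, H2O2-senescent cells given the ethanol vehicle (EtOH), uninduced cells given ESA and uninduced cells given EtOH. The H2O2-senescent cells had received 200 µM H2O2 for 24 h and 5 further days of culture, and ESA or EtOH was then present for 12 h. The sample labels give ESA at 2 µg/mL and the treatment protocol gives 10 µg/mL, so the dose is not certain. Every value is a gene's level in total RNA from a culture, so fewer cells of a kind and less RNA per cell cannot be told apart. The response difference of a gene was defined as its ESA response, the log2 fold change of ESA against EtOH, in H2O2-senescent cells minus its ESA response in uninduced cells. Of 16194 genes with enough counts to test, 42 had a response difference at an adjusted p under 0.05 and are described below as called. Etoposide-senescent cells and cells given the inhibitor ferrostatin-1 (Fer-1) are used for comparison. The etoposide-senescent cells had received etoposide at 2 µM, a drug that traps topoisomerase II on DNA and breaks it, for 24 h, with the same 5 days of culture. Fer-1 was given at 2 µM for 1 h before ESA or its methyl ester (ESA-Me). For ESA-Me the labels give 2 µg/mL and the treatment protocol gives 20 µg/mL, so its dose is not certain either.

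ESA is a conjugated linolenic acid, a polyunsaturated fatty acid that oxidises readily once it is built into cell lipids. Ferroptosis is a form of cell death driven by iron-dependent oxidation of membrane lipids, and Fer-1 is a radical trap that blocks it. Cells answer oxidised lipids and reactive aldehydes in part through NRF2, a transcription factor that binds antioxidant response elements and turns on enzymes of glutathione synthesis and aldehyde detoxification, and through raised expression of proteasome genes, whose products degrade damaged proteins. Senescent fibroblasts have left the cell cycle for good and remain metabolically active.

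The 12 libraries held 16.3 to 30.3 megareads of counted reads each. Summed fibroblast markers, 13 genes such as Col1a1 and Pdgfrb, lay at 15038 to 17524 CPM (counts divided by the TMM-scaled library size in megareads) in H2O2-senescent cells with ESA, at 17164 to 17865 CPM in H2O2-senescent cells with EtOH, at 15745 to 19098 CPM in uninduced cells with ESA and at 19339 to 22905 CPM in uninduced cells with EtOH. Endothelial markers, 8 genes of which 4 were tested, summed to at most 3.37 CPM in any of these libraries. Macrophage markers, 9 genes that were all tested, summed to 43.0 to 254 CPM in H2O2-senescent cells with ESA, 38.4 to 250 CPM in H2O2-senescent cells with EtOH, 151 to 184 CPM in uninduced cells with ESA and 59.1 to 147 CPM in uninduced cells with EtOH. Neural markers, 9 genes of which 5 were tested, summed to 394 to 1692 CPM in H2O2-senescent cells with ESA, 273 to 1099 CPM in H2O2-senescent cells with EtOH, 1032 to 1192 CPM in uninduced cells with ESA and 682 to 789 CPM in uninduced cells with EtOH. Adipocyte and chondrocyte markers, 8 genes of which 5 were tested, summed to 126 to 448 CPM in H2O2-senescent cells with ESA and 140 to 461 CPM with EtOH. In uninduced cells they summed to 379 to 655 CPM with ESA and 803 to 933 CPM with EtOH. Epithelial markers, with 2 of 7 genes tested, lay at 2.17 to 6.48 CPM in all H2O2-senescent and 21.6 to 38.1 CPM in all uninduced libraries. Skeletal muscle markers, with 2 of 9 tested, lay at 14.7 to 33.4 CPM in H2O2-senescent and 41.6 to 85.5 CPM in uninduced libraries. In uninduced cells the sums with ESA and with EtOH did not overlap for the fibroblast, endothelial, macrophage, neural, or adipocyte and chondrocyte markers. Their part in the results was not tested. Libraries of 1 replicate number within a state shared a preparation, as read from the data, and the preparations differed in sex-linked transcripts. Xist, the RNA of the inactive X chromosome, was at 243 to 300 CPM in H2O2-senescent replicate 1, 0.110 to 0.135 CPM in replicate 2 and 617 to 664 CPM in replicate 3. In uninduced cells Xist was at 217 to 350 CPM in replicate 2 and at most 0.0719 CPM in replicates 1 and 3. H2O2-senescent replicate 1 and uninduced replicate 2 held Xist together with Y-linked transcripts, which summed to 41 to 45 CPM in the H2O2-senescent and 30 to 37 CPM in the uninduced libraries. Y-linked transcripts summed to 164 to 177 CPM in H2O2-senescent replicate 2 and 0 CPM in replicate 3. In uninduced replicates 1 and 3 they summed to 182 to 230 CPM, so no uninduced preparation lacked them. The states were thus not matched in sex-linked transcripts, and the part of this in the response difference was not tested. Among the etoposide-senescent libraries, replicate 3 with ESA-Me and Fer-1 had 92.7 CPM of Y-linked transcripts, against 0 CPM in the other libraries of that number. It may thus not share their preparation. It enters the estimate of the spread only, and 55 genes were called without it. The H2O2-senescent replicate 1 and uninduced replicate 2 preparations also had the largest ESA response of their state, and the part of cell make-up in this was not tested: the root mean square log2 response over 10417 genes was 0.345, 0.132 and 0.183 in H2O2-senescent replicates 1, 2 and 3, and 0.255, 0.470 and 0.274 in uninduced replicates 1, 2 and 3. A difference in response size between the states was not larger than the spread of the preparations (exact two-sided permutation test, p = 0.3, where 0.1 is the smallest that 3 against 3 can give).

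The called genes were genes whose ESA response was blunted in H2O2-senescent cells. Of the 42 called genes (0.259% of those tested), 36 had a lower response in H2O2-senescent cells (0.222%) and 6 a higher one (0.0371%), and 1261 genes had an unadjusted p under 0.05. All 36 rose with ESA in uninduced cells and all 6 fell there, each at an adjusted p under 0.05. In H2O2-senescent cells 1 of the 42, Fez1, had a response at an adjusted p under 0.05, against 1.37% of all genes. At that share the count says nothing about the 42, and the difference that called them contains this response. The median response of the 36 genes was 0.09 in H2O2-senescent cells and 0.78 in uninduced cells, and that of the 6 genes was -0.00 in H2O2-senescent cells and -0.87 in uninduced cells. For 25 of the 36 and 5 of the 6, the response in H2O2-senescent cells lay within 0.25 log2 units of 0. Below the threshold the responses in H2O2-senescent cells lay on either side of 0, above it for 23 of the 36. No called gene had a response past the threshold in H2O2-senescent cells that was larger than, or opposite to, the one in uninduced cells (edgeR quasi-likelihood test). The background differed widely between the states: ESA changed 222 genes in H2O2-senescent cells (1.37%) and 3187 in uninduced cells (19.7%). The median standard error of the response was 0.142 in H2O2-senescent cells and 0.140 in uninduced cells. The model estimates 1 spread per gene for all states together, so these errors do not measure the spread within each state. Over all genes the responses had an SD of 0.36 in H2O2-senescent cells and 0.51 in uninduced cells.

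The count of 42 rests on the model and on single preparations. It was 0 without the replicate block (224 genes at an unadjusted p under 0.05), 0 with the block when the 12 libraries were fitted alone (1241 at an unadjusted p under 0.05), 1 without uninduced replicate 2, 3 without H2O2-senescent replicate 3, 6 without H2O2-senescent replicate 2 and 93 with DESeq2 and the block, which called all 42 genes again. The 3187 genes of uninduced cells became 774 without uninduced replicate 2, and the 222 genes of H2O2-senescent cells became 1 without H2O2-senescent replicate 1 and 72 without H2O2-senescent replicate 3. None of the 42 genes turned its direction under any alternative tried. For all 42 the ratios of ESA to EtOH by preparation did not overlap between the states. Leaving out a pair could thus hardly turn a direction, and nothing is read from this.

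**Figure D1:**
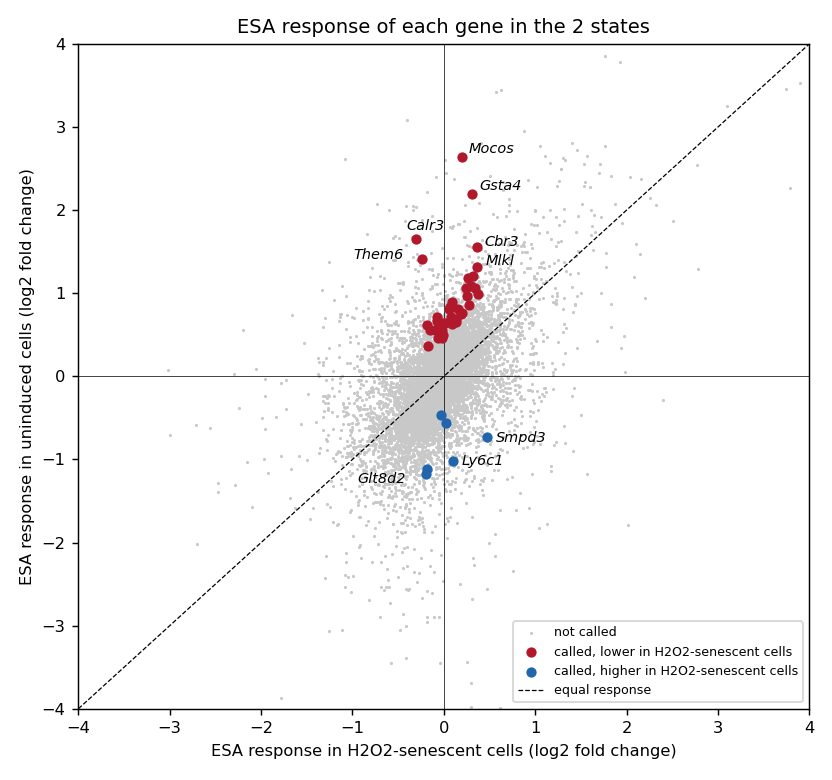
ESA response of each tested gene in H2O2-senescent cells (x axis, log2 fold change) against uninduced cells (y axis, log2 fold change), with the 36 genes called lower in red and the 6 called higher in blue. The red points lie at high y and near x = 0, from Hadh at 0.36 to Mocos at 2.64 on the y axis, and 12 genes fall outside the axes.

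The largest blunted rise was that of Mocos, the molybdenum cofactor sulfurase that activates xanthine dehydrogenase and aldehyde oxidase (chr18:24653691-24701575, GRCm38). Mocos was at 7.34, 3.51 and 5.56 CPM with ESA and 6.11, 3.77 and 4.17 CPM with EtOH in H2O2-senescent replicates 1, 2 and 3, against 6.57, 12.2 and 6.44 CPM with ESA and 1.45, 0.926 and 1.62 CPM with EtOH in uninduced replicates 1, 2 and 3. The ESA and EtOH levels overlapped in H2O2-senescent cells and were far apart in uninduced cells, where every ESA library was above every EtOH library. The response was 0.20 ± 0.21 (SE) in H2O2-senescent cells and 2.64 ± 0.23 in uninduced cells, a difference of -2.44 ± 0.32 (adjusted p = 0.000129). Mocos in H2O2-senescent cells was already above every uninduced EtOH library without ESA, and it was the gene that stayed called when uninduced replicate 2 was left out.

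Gsta4 encodes a glutathione transferase that removes reactive aldehydes formed from oxidised lipids (chr9:78182774-78209349). Its levels were 4.83, 1.39 and 8.17 CPM with ESA and 2.60, 1.39 and 8.34 CPM with EtOH in H2O2-senescent cells, against 5.63, 13.5 and 4.21 CPM with ESA and 0.797, 2.65 and 1.48 CPM with EtOH in uninduced cells. The 3 H2O2-senescent preparations differed more from each other than ESA differed from EtOH within any of them, and only replicate 1 was clearly higher with ESA, while every uninduced ESA library was above every uninduced EtOH library. The difference was -1.88 ± 0.37 (adjusted p = 0.0183). Cbr3, a carbonyl reductase (chr16:93683215-93690990), was at 23.5, 10.0 and 12.0 CPM with ESA and 13.6, 10.9 and 9.58 CPM with EtOH in H2O2-senescent cells, against 13.1, 24.0 and 12.4 CPM with ESA and 6.33, 5.06 and 5.30 CPM with EtOH in uninduced cells. H2O2-senescent replicate 1 was clearly higher with ESA, replicate 3 slightly higher and replicate 2 slightly lower, while all 3 uninduced preparations were clearly higher. Its difference was -1.19 ± 0.25 (adjusted p = 0.0295).

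Mlkl, the protein that ruptures the plasma membrane in necroptosis (chr8:111311797-111338177), was at 15.7, 11.6 and 9.62 CPM with ESA and 11.1, 10.5 and 7.05 CPM with EtOH in H2O2-senescent cells, against 28.9, 30.2 and 21.1 CPM with ESA and 13.5, 9.39 and 9.59 CPM with EtOH in uninduced cells. The vehicle levels of the states overlapped and the ESA levels did not. The difference was -0.95 ± 0.17 (adjusted p = 0.0143), from a response of 0.36 in H2O2-senescent cells and 1.31 in uninduced cells. Limk1, a kinase that acts on cofilin and through it on actin filaments (chr5:134656039-134688598), was at 38.1, 16.3 and 23.8 CPM with ESA and 28.6, 16.3 and 19.0 CPM with EtOH in H2O2-senescent cells, against 57.3, 93.6 and 61.8 CPM with ESA and 28.6, 33.2 and 30.9 CPM with EtOH in uninduced cells. In uninduced cells the ESA and EtOH libraries were far apart, in H2O2-senescent cells they overlapped, and the difference was -0.92 ± 0.18 (adjusted p = 0.0171).

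The other lowest differences belonged to Calr3, a chaperone of the calreticulin family, at -1.96 ± 0.43, and Them6, a member of the thioesterase superfamily, at -1.65 ± 0.35. Both were low: Calr3 was at 0.944 to 1.71 CPM with ESA and 1.18 to 2.29 CPM with EtOH in H2O2-senescent cells, against 1.31 to 4.61 CPM with ESA and 0.563 to 0.926 CPM with EtOH in uninduced cells. Zfand2a, an arsenite-inducible protein that associates with the proteasome (chr5:139471211-139484549), was at 112, 67.7 and 70.6 CPM with ESA and 73.8, 63.8 and 59.3 CPM with EtOH in H2O2-senescent cells, against 69.7, 118 and 77.0 CPM with ESA and 39.7, 36.5 and 37.3 CPM with EtOH in uninduced cells. Its levels under EtOH were higher in every H2O2-senescent library than in any uninduced one, and its difference was -0.89 ± 0.19 (adjusted p = 0.0292). Mllt11 (-0.81 ± 0.17), the microtubule-associated protein gene Map1a (-0.80 ± 0.15), Mtln, which encodes a mitochondrial micropeptide (-0.80 ± 0.16), and Impact, an inhibitor of the amino acid sensing kinase GCN2 (-0.79 ± 0.13), completed the 12 lowest. Impact showed the pattern with little scatter: it was at 152, 153 and 152 CPM with ESA and 183, 154 and 149 CPM with EtOH in H2O2-senescent cells, against 178, 165 and 163 CPM with ESA and 106, 95.2 and 108 CPM with EtOH in uninduced cells.

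**Figure D2:**
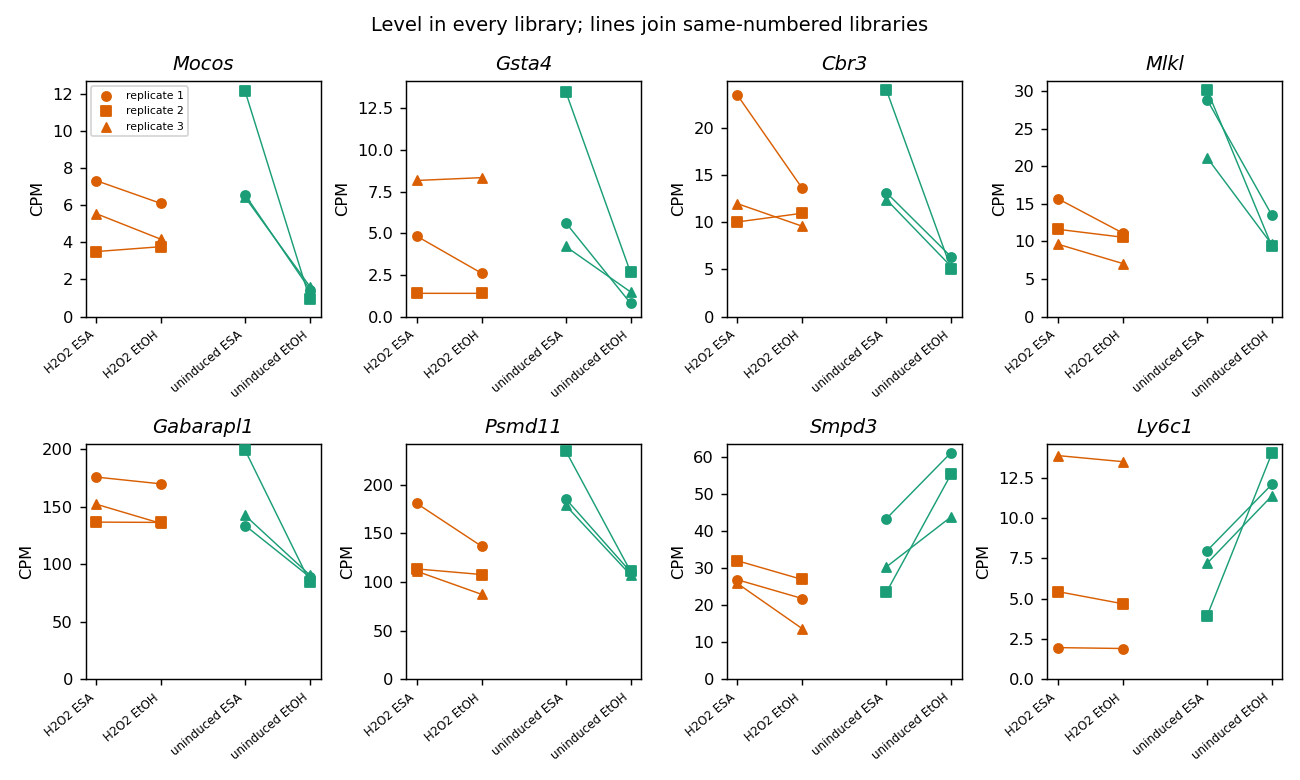
Level in CPM (y axis) of 8 called genes in each of the 12 libraries, with lines joining the ESA and EtOH libraries of 1 replicate number (H2O2-senescent in orange, uninduced in green). In the first 6 panels the green lines run down steeply from ESA to EtOH while the orange lines are flatter, as for Mocos at 6.44 to 12.2 CPM against 0.926 to 1.62 CPM in uninduced cells; in Smpd3 and Ly6c1 the green lines run up.

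Among the gene lists, that of proteasome subunits held the most called genes. The list of subunits was drawn up after the called genes had been seen, so its counts describe it and support nothing. Of its 37 tested members, 5 had a lower response in H2O2-senescent cells, Psma1 and Psma7 of the core's outer alpha ring, the ATPase Psmc2 and the lid and base subunits Psmd11 and Psmd1, and none a higher one, against 0.222% and 0.0371% of all genes. The count was 14 with DESeq2 and the block. It was 0 without uninduced replicate 2 or H2O2-senescent replicate 3 and 1 without H2O2-senescent replicate 2. The median difference was -0.41, against 0.02 over all genes tested, and 34 of the 37 lay below 0, against 46.9% of all genes. ESA raised none of the 37 in H2O2-senescent cells, against 1.13% of all genes, and 31 in uninduced cells, against 9.16%, with median responses of 0.14 in H2O2-senescent cells and 0.55 in uninduced cells. At a share of 1.13% a count of 0 in 37 genes says nothing about them. Psmd1 (chr1:86064387-86139151) was at 231, 164 and 181 CPM with ESA and 216, 156 and 171 CPM with EtOH in H2O2-senescent cells, against 284, 326 and 267 CPM with ESA and 194, 193 and 182 CPM with EtOH in uninduced cells. Each H2O2-senescent preparation was slightly higher with ESA, and each uninduced one was higher by a larger margin. Its difference was -0.54 ± 0.09 (adjusted p = 0.0105). Psmd11 (chr11:80428615-80473248) was at 181, 113 and 111 CPM with ESA and 137, 108 and 87.3 CPM with EtOH in H2O2-senescent cells, against 185, 235 and 179 CPM with ESA and 110, 111 and 107 CPM with EtOH in uninduced cells, and its difference was -0.58 ± 0.13 (adjusted p = 0.0312). The differences of Psma1, Psmc2 and Psma7 were -0.63 ± 0.14, -0.56 ± 0.12 and -0.55 ± 0.11. Psma5, at -0.64 ± 0.15, missed the threshold with an adjusted p of 0.0520.

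The inducible subunits of the immunoproteasome, Psmb8, Psmb9 and Psmb10, which replace catalytic beta subunits under interferon, had differences of 0.25, 0.05 and 0.01, none of which passed the test. Their 95% intervals were -0.56 to 1.06, -1.84 to 1.93 and -0.43 to 0.44. Each includes the list's median of -0.41, so these subunits are not set apart from the others. Psmd8 at -0.05 and Sem1 at -0.11 also lay near 0. By preparation, the median log2 ratio of the subunit genes was 0.25, 0.07 and 0.11 in H2O2-senescent replicates 1, 2 and 3, and 0.44, 0.73 and 0.41 in uninduced replicates 1, 2 and 3. The lowest uninduced preparation was above the highest H2O2-senescent one. The list was drawn up after the called genes had been seen and the test used the same libraries, so nothing is read from this. Another list, of 20 activators, assembly chaperones and regulators of the proteasome, was also drawn up after values had been seen. Its median difference was -0.10, against 0.02 over all genes, and 15 of the 20 lay below 0, against 46.9%. It held 0 called members, against 0.259% of all genes, a share at which this count says nothing about them.

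**Figure D3:**
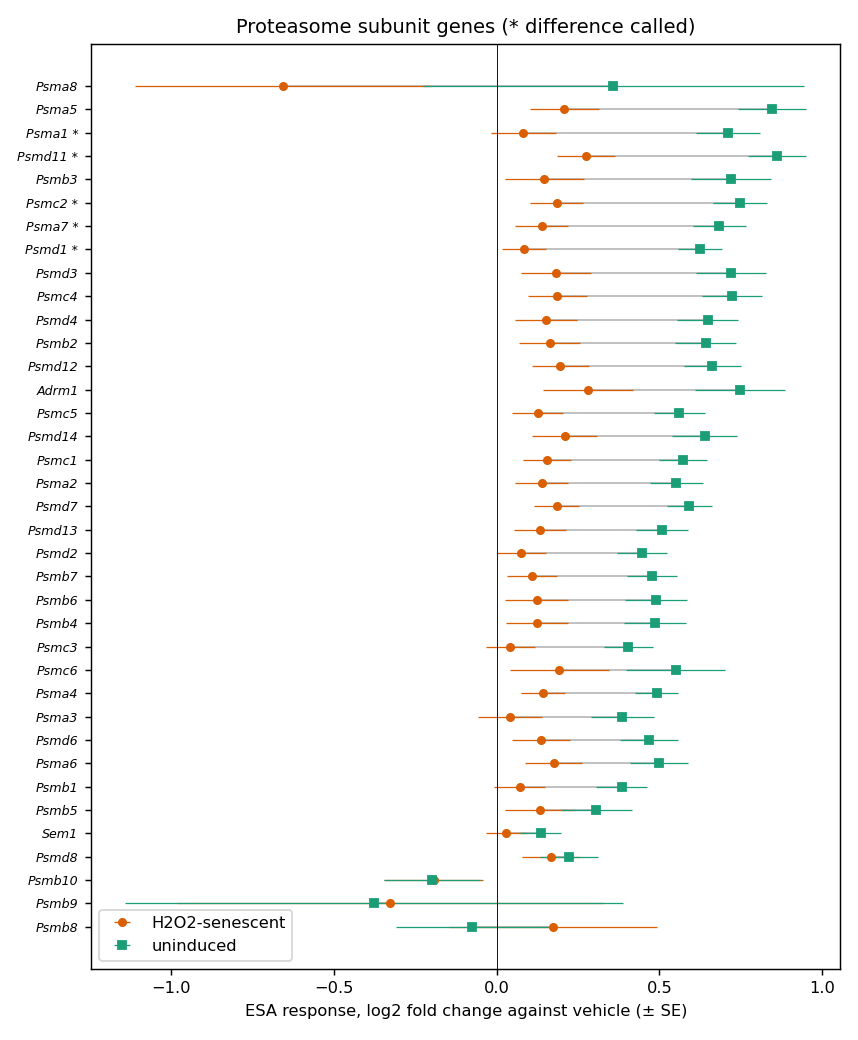
ESA response of the 37 tested proteasome subunit genes (x axis, log2 fold change against EtOH, bars ± SE), ordered by response difference, with H2O2-senescent cells as orange circles, uninduced cells as green squares and an asterisk at the 5 genes whose difference was called. For most genes the circles sit near 0.14 and the squares near 0.55. The points of Psmb8, Psmb9 and Psmb10 at the bottom do not show that gap. The 95% intervals of their differences include the list's median of -0.41, so they are not set apart from the others.

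Of the 30 tested NRF2 targets, 3 had a lower response in H2O2-senescent cells, Gsta4 and Cbr3 above and Htatip2, an oxidoreductase, and none a higher one, against 0.222% and 0.0371% of all genes. The count was 6 with DESeq2 and the block, and 0 without uninduced replicate 2, H2O2-senescent replicate 2 or H2O2-senescent replicate 3. The median difference was -0.33 and 25 of the 30 lay below 0, against 46.9% of all genes. ESA raised 6 of the 30 in H2O2-senescent cells, against 1.13% of all genes, and 22 in uninduced cells, against 9.16%, with median responses of 0.32 in H2O2-senescent cells and 0.63 in uninduced cells. Htatip2 (chr7:49759115-49773975) was at 35.3, 24.0 and 33.2 CPM with ESA and 33.3, 23.2 and 35.4 CPM with EtOH in H2O2-senescent cells, against 32.1, 45.8 and 30.8 CPM with ESA and 22.3, 23.5 and 23.1 CPM with EtOH in uninduced cells. It did not move with ESA in H2O2-senescent cells and was higher in all 3 uninduced preparations, with a difference of -0.63 ± 0.12 (adjusted p = 0.0171).

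Other NRF2 targets were not called with the filter on low counts, among them Srxn1 and Hmox1, whose preparations lay far apart. Srxn1, which repairs overoxidised peroxiredoxins, was at 286, 59.4 and 88.5 CPM with ESA and 103, 43.1 and 54.1 CPM with EtOH in H2O2-senescent cells, against 133, 322 and 141 CPM with ESA and 31.7, 40.9 and 36.9 CPM with EtOH in uninduced cells. Its difference was -1.44 ± 0.35 with an adjusted p of 0.0773. The adjusted p of Srxn1 was 0.00279 with DESeq2 and the block, 0.0279 with a stricter filter, 0.0443 with a plain estimate of the spread and 0.048 without H2O2-senescent replicate 1. Over all alternatives it ran from 5.4e-20 with no filter to 1 without the block. Hmox1, the heme oxygenase, was at 1811, 264 and 356 CPM with ESA and 292, 132 and 151 CPM with EtOH in H2O2-senescent cells, against 346, 1366 and 396 CPM with ESA and 99.4, 109 and 102 CPM with EtOH in uninduced cells. H2O2-senescent replicate 1 and uninduced replicate 2 stood far above the other ESA libraries. Hmox1 rose in both states, by 1.71 ± 0.36 in H2O2-senescent cells (adjusted p = 0.0148) and by 2.56 ± 0.37 in uninduced cells (adjusted p = 3.85e-05), and the difference of -0.85 ± 0.50 did not pass (adjusted p = 0.783, 95% interval -1.88 to 0.18). Osgin1, Gclm, a subunit of the enzyme that limits glutathione synthesis, and the thioredoxin reductase Txnrd1 had differences of -1.40 ± 0.45, -0.90 ± 0.33 and -0.35 ± 0.25, none of them past the threshold with the filter, and Slc7a11, the cystine importer, one of -0.19 ± 0.47 with a 95% interval of -1.15 to 0.76. The median log2 ratio of the NRF2 targets by preparation was 0.53, 0.08 and 0.24 in H2O2-senescent cells and 0.48, 0.94 and 0.43 in uninduced cells, so that the preparations of the states overlapped. With no filter on low counts the differences of Hmox1, Osgin1 and Gclm passed, at adjusted p of 1.15e-07, 1.86e-07 and 3.95e-06 and nearly the same size, and 13 NRF2 targets were called. As the sizes hardly moved, these values and that of Srxn1 with no filter reflect another estimate of the spread. They are not read as stronger evidence.

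**Figure D4:**
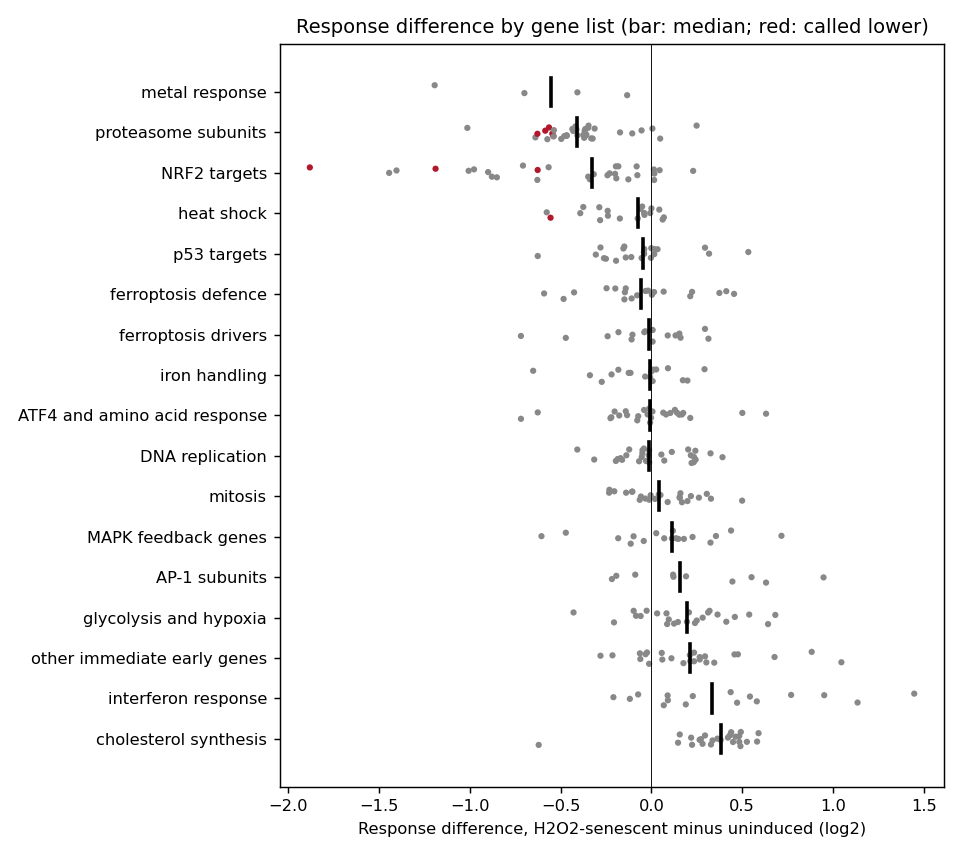
Response difference, H2O2-senescent minus uninduced (x axis, log2), of the members of 17 gene lists (1 row each), with each list's median as a black bar and called members in red. The medians run from -0.55 for the 4 metal response genes, -0.41 for the proteasome and -0.33 for NRF2 targets to 0.38 for cholesterol synthesis, and of the 17 lists drawn those of the proteasome, NRF2 targets and heat shock hold called members.

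The remaining genes with a blunted rise came from several pathways. Against 0.222% of all genes with a lower response and 46.9% with a difference below 0, 1 of 23 lysosome and autophagy genes was called and 20 lay below 0. The called gene was Gabarapl1, a protein that is joined to lipid on autophagosome membranes (chr6:129533160-129542346). Gabarapl1 was at 176, 137 and 152 CPM with ESA and 170, 136 and 136 CPM with EtOH in H2O2-senescent cells, against 134, 199 and 142 CPM with ESA and 88.8, 84.6 and 90.5 CPM with EtOH in uninduced cells. Every library of H2O2-senescent cells, with or without ESA, was above every uninduced EtOH library, and the difference was -0.76 ± 0.12 (adjusted p = 0.00546). Among 10 genes of cholesterol efflux and liver X receptor targets, Abca1, the transporter that loads cholesterol onto apolipoproteins, was called at -0.74 ± 0.15 (adjusted p = 0.0274), and 7 of the 10 lay below 0. Among 19 heat shock genes, Hspb8, a small chaperone that works with autophagy, was called at -0.56 ± 0.12, the list's median difference was -0.08 and 16 of the 19 lay below 0. Among 24 cell death genes only Mlkl was called, the median was -0.01 and 12 of the 24 lay below 0. The 4 tested metal response genes had a median of -0.55 with none called.

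Outside the lists, the called genes with a blunted rise included Slc48a1, a heme transporter of lysosomes (-0.66 ± 0.14), Nol3, a repressor of apoptosis (-0.75 ± 0.16), Esd, an esterase that acts on a glutathione adduct of formaldehyde (-0.73 ± 0.16), Layn, a hyaluronan receptor (-0.79 ± 0.17), Mmp19, a matrix metalloproteinase (-0.58 ± 0.11), Hadh, a dehydrogenase of fatty acid oxidation (-0.53 ± 0.12), and Ikbkg, the regulatory subunit of the kinase that activates NF-kappaB (-0.51 ± 0.09). Hadh had the smallest response in uninduced cells of the 36, 0.36, and one of -0.17 in H2O2-senescent cells. Slc48a1 was at 227, 189 and 189 CPM with ESA and 198, 175 and 171 CPM with EtOH in H2O2-senescent cells, against 180, 226 and 150 CPM with ESA and 114, 96.9 and 106 CPM with EtOH in uninduced cells. Fez1, an adaptor for kinesin motors, was the called gene that also rose in H2O2-senescent cells, by 0.38 (adjusted p = 0.0347), against 0.99 in uninduced cells. The last gene inside the threshold was Pfn2, a profilin, with an adjusted p of 0.0491, and the first outside were Psma5 and Enpp2 at 0.0520.

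The 6 genes whose fall was blunted were Smpd3, Ly6c1, Glt8d2, Foxd1, Peg10 and H1f0. Smpd3, a neutral sphingomyelinase that releases ceramide (chr8:106252548-106337988), was at 26.8, 31.9 and 25.8 CPM with ESA and 21.8, 26.9 and 13.6 CPM with EtOH in H2O2-senescent cells, against 43.3, 23.4 and 30.3 CPM with ESA and 61.1, 55.3 and 43.8 CPM with EtOH in uninduced cells. All 3 uninduced preparations were lower with ESA and all 3 H2O2-senescent ones were higher, with a response of 0.47 in H2O2-senescent cells that did not pass the test and a difference of 1.21 ± 0.26 (adjusted p = 0.0329). Ly6c1, a surface protein whose reads may be shared with its close copy Ly6c2 (chr15:75044018-75048830), was at 1.96, 5.44 and 13.9 CPM with ESA and 1.91, 4.69 and 13.5 CPM with EtOH in H2O2-senescent cells, against 7.98, 3.92 and 7.19 CPM with ESA and 12.1, 14.0 and 11.4 CPM with EtOH in uninduced cells. ESA left each H2O2-senescent preparation close to its own vehicle level, although the 3 preparations were far apart. The transcription factor gene Foxd1 had a difference of 0.93 ± 0.21, the glycosyltransferase gene Glt8d2 one of 0.99 ± 0.22, the imprinted gene Peg10 one of 0.59 ± 0.13 and H1f0, the linker histone of non-dividing cells, one of 0.43 ± 0.09.

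The genes of cholesterol synthesis leaned the same way. None of the 25 was called by edgeR with the filter or by DESeq2 with the block, and 3 were called by edgeR with no filter. Of the 25, 24 lay above 0 and the median difference was 0.38, against 0.02 over all genes tested, of which 8602 lay above 0. ESA lowered none of the 25 in H2O2-senescent cells, against 0.241% of all genes, and 21 in uninduced cells, against 10.5%, with median responses of -0.13 in H2O2-senescent cells and -0.52 in uninduced cells. At a share of 0.241% a count of 0 in 25 genes says nothing about them. Hmgcs1, which makes the precursor of mevalonate, was at 43.5, 77.3 and 91.0 CPM with ESA and 63.0, 76.4 and 94.0 CPM with EtOH in H2O2-senescent cells, against 86.1, 49.4 and 61.7 CPM with ESA and 116, 123 and 90.5 CPM with EtOH in uninduced cells. All 3 uninduced preparations and H2O2-senescent replicate 1 were clearly lower with ESA, and the difference of 0.59 did not pass (adjusted p = 0.342).

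Genes chosen by their response in etoposide-senescent cells are given by their levels of response. The 78 genes that ESA raised in etoposide-senescent cells (0.482%), libraries that the difference did not use, had a median response of 0.80 in H2O2-senescent cells and 0.73 in uninduced cells. Of their differences 35 lay below 0, against 46.9% of all genes, and 0 were called, against 0.259%. The 8 genes that ESA lowered there (0.0494%) had a median response of -0.31 in H2O2-senescent cells and -0.49 in uninduced cells, with 0 called. At that background share a count of 0 says nothing about these genes. The subunits of AP-1, a transcription factor made of FOS and JUN proteins, the other immediate early genes and the feedback genes of MAP kinase signalling, of which 10, 25 and 18 were tested, had median differences of 0.16, 0.21 and 0.12. The median of the MAP kinase genes became -0.066 without H2O2-senescent replicate 1. Fosl1, a FOS-family subunit, was at 103, 17.3 and 29.4 CPM with ESA and 19.4, 7.73 and 7.87 CPM with EtOH in H2O2-senescent cells, against 60.6, 112 and 68.4 CPM with ESA and 20.0, 20.1 and 16.3 CPM with EtOH in uninduced cells. It rose in both states, by 1.88 ± 0.29 in H2O2-senescent cells and 2.07 ± 0.27 in uninduced cells, and the 95% interval of the difference ran from -0.99 to 0.60. Atf3, a stress-induced transcription factor, rose by 2.51 ± 0.33 in H2O2-senescent cells and 1.88 ± 0.33 in uninduced cells, with an interval of the difference from -0.32 to 1.59. These intervals leave room for differences as large as those of many called genes.

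No gene with a larger response in H2O2-senescent cells was called by edgeR with the filter on low counts. With no filter, 178 genes had a higher response in H2O2-senescent cells, and with DESeq2 and the block 23 did, which includes blunted falls. Egr1, an immediate early transcription factor, was at 158, 136 and 233 CPM with ESA and 32.6, 72.6 and 133 CPM with EtOH in H2O2-senescent cells, against 142, 68.4 and 95.4 CPM with ESA and 125, 50.9 and 82.1 CPM with EtOH in uninduced cells. Each H2O2-senescent preparation was well above its own vehicle level and each uninduced one slightly above its own. Egr1 rose by 1.33 ± 0.25 in H2O2-senescent cells (adjusted p = 0.00585), its response of 0.28 ± 0.24 in uninduced cells did not pass, and the difference of 1.05 ± 0.34 had an adjusted p of 0.314. The adjusted p of Egr1 was 2.21e-11 with no filter, at a difference of 1.06, 0.171 with DESeq2 and the block, and up to 1 without the block. The value with no filter again reflects another estimate of the spread at nearly the same size, and is not read as stronger evidence. Sik1, a salt-inducible kinase named after its values were seen, came closer to the threshold, with a difference of 0.73 ± 0.18 and an adjusted p of 0.0773. Sik1 was at 29.6, 36.5 and 26.8 CPM with ESA and 16.3, 29.2 and 21.6 CPM with EtOH in H2O2-senescent cells, against 28.3, 26 and 34.8 CPM with ESA and 35, 28 and 42.1 CPM with EtOH in uninduced cells.

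For the core genes of ferroptosis the sizes are given, since with 0.259% of all genes called a count of 0 in lists of this length says nothing about them. The median differences of 20 defence genes, 16 driver genes and 17 genes of iron handling were -0.06, -0.01 and -0.01, with 0 called (edgeR), against a median of 0.02 over all genes. Gpx4, the peroxidase that reduces lipid hydroperoxides, had a difference of 0.00 ± 0.14 with a 95% interval of -0.29 to 0.30, and Acsl4, which activates polyunsaturated fatty acids for membrane lipids, one of 0.01 ± 0.25 with an interval of -0.50 to 0.51. Ptgs2, a cyclooxygenase gene used as a marker of ferroptosis, rose in both states, by 1.24 ± 0.31 in H2O2-senescent cells and 1.40 ± 0.30 in uninduced cells. The 25 mitosis genes had a median difference of 0.04, with 0 called. ESA lowered 4 of them in H2O2-senescent cells, against 0.241% of all genes, and all 25 in uninduced cells, against 10.5%, with median responses of -0.92 in H2O2-senescent cells and -0.88 in uninduced cells. Genes of the interferon response had a median difference of 0.33 with 0 of 16 called.

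Before any ESA, many of the genes with a blunted rise were already higher in the senescent cells. Under EtOH the mean level was higher in H2O2-senescent than in uninduced cells for 29 of the 36, against 53% of all genes tested, and all 3 H2O2-senescent libraries were above all 3 uninduced ones for 18 of the 36, against 21.3%. For 0 of the 36 were all 3 H2O2-senescent libraries below, against 20.7% of all genes. The same EtOH libraries enter the response difference, and a high vehicle level in H2O2-senescent cells lowers it, so these counts describe the genes and are not a separate result.

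The values by preparation show how each library pair contributed. The median log2 ratio of ESA to EtOH over the 36 genes, with 2 CPM added to each value, was 0.17, 0.02 and 0.10 in H2O2-senescent replicates 1, 2 and 3, and 0.59, 1.04 and 0.62 in uninduced replicates 1, 2 and 3. All 36 had 3 H2O2-senescent ratios below all 3 uninduced ones, against 6.23% of all genes, and all 6 of the others had them above, against 8.87%. Since the test used these ratios, nothing is read from those counts. The etoposide-senescent libraries were not used by the difference. Their median ratio over the 36 genes was 0.12, 0.08 and 0.11, and the fitted response lay below the uninduced one for all 36 and above it for all 6 of the others. The uninduced response in that count comes from the same libraries as the difference, and the etoposide-senescent response was not tested against it here. None of the 42 passed the threshold in etoposide-senescent cells, but only 86 of all genes did (0.531%), so this count says nothing about them. For 28 of the 36 the response there lay within 0.25 log2 units of 0. Larger ones included Zfand2a at 0.38 ± 0.13 and, among the 6, Smpd3 at 0.49 ± 0.19, while Zrsr1 was at -0.33 ± 0.10.

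**Figure D5:**
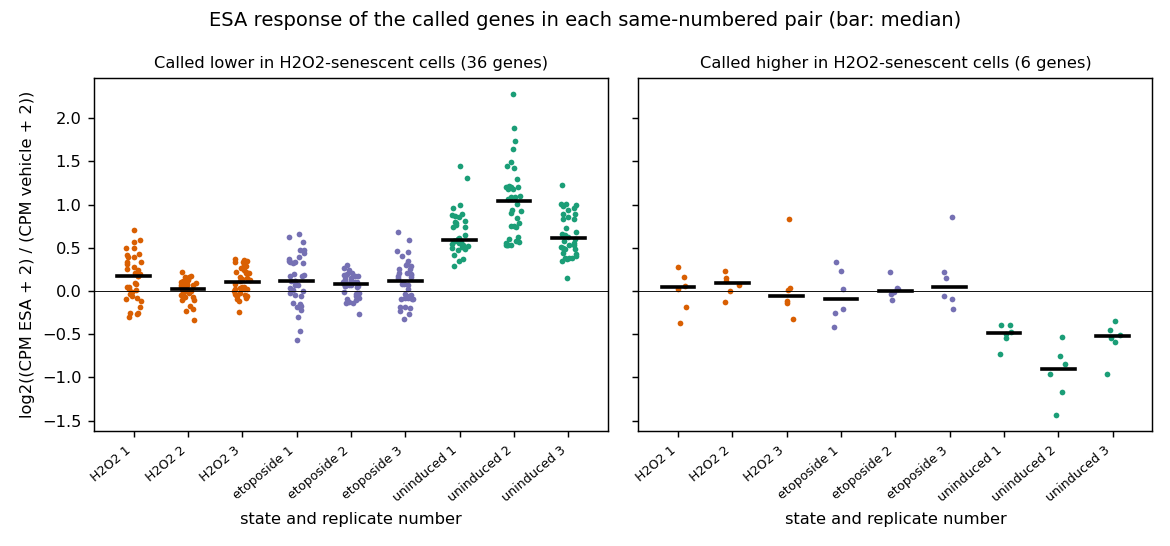
Log2 ratio of ESA to EtOH, with 2 CPM added to each, for each of the 36 called-lower genes (left) and 6 called-higher genes (right) in each same-numbered pair of libraries (points, bars at the median), by state and replicate number. On the left the H2O2-senescent and etoposide-senescent medians lie between 0.02 and 0.17, and the uninduced ones at 0.59, 1.04 and 0.62.

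With Fer-1 before ESA, the called genes of uninduced cells were near their vehicle level. The median log2 ratio of ESA with Fer-1 to EtOH over the 36 genes was -0.01, 0.10 and 0.08 in H2O2-senescent replicates 1, 2 and 3, and 0.09, 0.16 and 0.07 in uninduced replicates 1, 2 and 3. Mocos was at 1.18, 1.5 and 1.06 CPM in uninduced cells with ESA and Fer-1, against 6.57, 12.2 and 6.44 CPM in uninduced cells with ESA alone. In uninduced cells 31 of the 36 genes had all 3 libraries with ESA and Fer-1 below all 3 with ESA, against 11.9% of all genes, and 5 of the 6 others had them above, against 13.4%; the ESA libraries are those the genes were called from. ESA-Me gave a separate set of libraries: the log2 fold change of ESA-Me against ESA-Me with Fer-1 was compared between the states in the same way, H2O2-senescent minus uninduced. No gene passed (0% of 16194 by edgeR, 0 also by DESeq2, and 347 at an unadjusted p under 0.05 by edgeR). Of the 36 genes, 35 had an ESA-Me difference below 0, with a median of -0.22, against 44.2% of all genes, and 5 of the 6 others had one above 0, with a median of 0.49. These libraries come from the same preparations as those of ESA.

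Promoters were searched because several called genes are known NRF2 targets. The antioxidant response element core was written as TGACNNNGC and looked for on both strands in the 250 bases before and 50 bases after each transcript start that RefSeq lists for a gene on GRCm38.p6, of which there were 1.39 per called-lower gene and 1.28 per gene over all. It was present at 1 start or more in 6 of the 28 called-lower genes with a promoter entry (21.4%), Calr3, Epb41, Fam219a, Fez1, Htatip2 and Ikbkg, in 0 of 3 called-higher genes, in 6 of 30 proteasome subunit genes (20.0%) and in 10 of 24 NRF2 targets (41.7%), against 16.7% of the 11099 tested genes with a promoter entry. The AP-1 site TGANTCA, which can overlap the element, was present in 7.14% of the called-lower genes and 6.55% of all, and the cyclic AMP element TGACGTCA in 7.14% and 3.49%. Counted by start, the element was present at 8 of 39 starts of called-lower genes (20.5%), against 14.0% of all 14179 starts. The share of called-lower genes with the element was near that of all genes. Windows were taken for genes chosen by hand, among them Psmd12, which holds the element, was not called and is not shown. Calr3, Epb41 and Fam219a were not among the genes chosen. The windows of 3 called genes are shown, each with the element upstream of a start. In all 3 this is an internal RefSeq start, downstream of the gene's first GENCODE start, and which start the cells used was not measured. Capitals mark the element, all windows are on the plus strand, and in Fez1 and Ikbkg the element reads on the other strand.

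Htatip2, chr7:49759423-49759511: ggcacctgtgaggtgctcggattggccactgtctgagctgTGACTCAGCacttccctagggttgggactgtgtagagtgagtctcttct
Ikbkg, chrX:74424534-74424611: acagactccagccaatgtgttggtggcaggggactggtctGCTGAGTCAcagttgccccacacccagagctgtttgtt
Fez1, chr9:36833411-36833499: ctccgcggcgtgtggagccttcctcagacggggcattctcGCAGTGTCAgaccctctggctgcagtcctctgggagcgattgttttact

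In Htatip2 and Ikbkg the element also holds the AP-1 letters, and it lies 49 to 41 and 38 to 30 bases before that internal start. In Fez1 it lies 123 to 115 bases before it. Htatip2 and Ikbkg did not change with ESA in H2O2-senescent cells, with responses of 0.01 and -0.01, and rose by 0.64 and 0.50 in uninduced cells.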

How the data were processed

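RNA was measured by stranded total RNA sequencing in 45 libraries, 3 biological replicates in each of 15 groups (3 states by 5 treatments), per the labels. The deposited table holds raw read counts per gene made by the authors. Per the submitters' processing notes, FastQC, HISAT2 2.1.0, featureCounts, edgeR and GRCm38 were used, with roles and settings not given in the sources used here. The table lists 57010 identifiers, of which 21212 had no count. How reads shared by near-identical genes were counted is not stated.

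From these counts, edgeR 4.0.16 (R 4.3.3) kept 16194 genes (filterByExpr, 99.95% of counts), scaled with TMM and fitted 1 robust quasi-likelihood model to all 45 libraries, with replicate number nested in state as a block (21 coefficients, 24 residual degrees of freedom). The contrast rests on 12 libraries; the others only add to the estimate of the spread. P-values were Benjamini-Hochberg adjusted over all tested genes and called under 0.05. Errors are standard errors. CPM used TMM-scaled library sizes. Levels in CPM are not divided by gene length, so they are not compared between genes. The fit was run on counts simulated from the fitted model. This cannot test how the calls depend on that model or on single preparations.

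Replicate numbers pair libraries within a state, as read from correlations of the deviations of ESA and EtOH libraries from their group means. For the same number these were 0.72, 0.71 and 0.82 in H2O2-senescent cells and 0.42, 0.40 and 0.27 in uninduced cells. Values for different numbers were negative. With deviations taken from a group mean, positive values for the same number push the others below 0, so nothing is read from their sign. The same number did not pair libraries across states, at -0.38, -0.36 and 0.11 for ESA and -0.17, -0.22 and 0.05 for EtOH libraries. The highest values across states joined different numbers. H2O2-senescent replicate 1 and uninduced replicate 2 correlated at 0.45 with ESA and 0.17 with EtOH. H2O2-senescent replicate 2 and uninduced replicate 1 correlated at 0.35 with ESA and 0.26 with EtOH. Whether these shared a source was not tested, and the fit does not pair them. Within groups no library was a copy of another.

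The text names the 12 highest and 12 lowest called differences (6 higher exist), called members of the gene lists and a panel of 25 genes; others are named to show a list or as neighbours of the threshold, after their values were seen. Members and lists were chosen with earlier results of these data known. Coordinates are GENCODE M21 on GRCm38. Alternatives were other scalings, filters, DESeq2 1.42.0, no block, the 12 libraries alone and leaving out each pair.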

Additional observations from a re-analysis of the deposited data

Results flagged for a closer look

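The ESA response of 42 genes differed between H2O2-senescent and uninduced cells by the test of the difference itself (edgeR, adjusted p under 0.05). Each value below is a response difference in log2 units, H2O2-senescent minus uninduced.

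The response was lower in H2O2-senescent cells for 36 genes. Among genes of detoxification and NRF2 targets the difference was Gsta4 -1.88, Cbr3 -1.19 and Htatip2 -0.63. Among proteasome subunits it was Psma1 -0.63, Psmd11 -0.58, Psmc2 -0.56, Psma7 -0.55 and Psmd1 -0.54. Among genes of protein quality control, autophagy and lysosomes it was Calr3 -1.96, Zfand2a -0.89, Gabarapl1 -0.76, Hspb8 -0.56 and Creg1 -0.53. Among genes of cell death and inflammatory signalling it was Mlkl -0.95, Nol3 -0.75 and Ikbkg -0.51. Among genes of metabolism and transport it was Mocos -2.44, Them6 -1.65, Mtln -0.80, Abca1 -0.74, Esd -0.73, Slc48a1 -0.66, Hadh -0.53 and Ide -0.49. Among genes of the cytoskeleton and the cell surface it was Limk1 -0.92, Map1a -0.80, Layn -0.79, Pfn2 -0.66, Epb41 -0.66, Fez1 -0.62 and Mmp19 -0.58. For the others it was Mllt11 -0.81, Impact -0.79, Fam219a -0.72, Zrsr1 -0.71 and Gpatch1 -0.52.

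The response was higher in H2O2-senescent cells for 6 genes, at H1f0 0.43, Peg10 0.59, Foxd1 0.93, Glt8d2 0.99, Ly6c1 1.11 and Smpd3 1.21.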

How the results depend on the processing

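Without the replicate block the counts of called genes were 0 for the response difference, 0 in H2O2-senescent, 23 in uninduced and 0 in etoposide-senescent cells; DESeq2 without the block, chosen after seeing the data, called 1, 2, 199 and 3. DESeq2 with the block called 93 for the difference (70 lower, 23 higher), 436 in H2O2-senescent and 212 in etoposide-senescent cells. With no filter on low counts the difference had 270 calls (92 lower, 178 higher), H2O2-senescent cells 778, etoposide-senescent cells 496 and the ESA-Me with Fer-1 difference 12. The 12 libraries alone gave 0 calls for the difference and 17 in H2O2-senescent cells; this fit has fewer libraries from which to estimate the spread, and it was not run for the ESA-Me with Fer-1 difference. Leaving out each pair gave 1 to 47 calls for the difference, 1 to 244 in H2O2-senescent, 774 to 3171 in uninduced, 69 to 107 in etoposide-senescent cells and 0 for the ESA-Me with Fer-1 difference, and the response size differed by -0.18 to -0.04. The cause of these shifts was not tested.

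Of the 42 genes, 23 kept their call without H2O2-senescent replicate 1, 6 without replicate 2 and 3 without replicate 3, and 31, 1 and 32 without uninduced replicates 1, 2 and 3. Under other scalings, a stricter filter, a plain estimate of the spread and a fit without 1 etoposide-senescent library (replicate 3 with ESA-Me and Fer-1), the last chosen after seeing the data, 41 or 42 kept it, and 36 kept it with no filter. The median difference without 1 pair ran from -0.46 to -0.32 for proteasome subunits, from -0.55 to -0.15 for NRF2 targets, from 0.24 to 0.45 for cholesterol synthesis and from -0.066 (without H2O2-senescent replicate 1) to 0.19 for MAPK feedback genes.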
